A study of Mus musculus with 6 samples.

Results

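Complement components and regulators were followed in primary cultured mouse renal tubule epithelial cells (RTECs) with and without transforming growth factor (TGF)-β1, a profibrotic cytokine. The group comprised 9 genes chosen by symbol, C3, C4b, Cfb, Cfi, C1ra, C2, Cd55, Cd59a and Serping1, of the 46517 gene rows of the count files. All 9 had enough reads to be among the 15862 genes tested. The cells were grown from kidneys of wild-type FvB mice, 4 to 6 weeks old according to the labels (the methods give a slightly younger range and male animals). Both groups were held in serum-free medium for 24 h, after which 3 cultures received 50 ng/ml TGF-β1 for 24 h and 3 served as control (CTL). Poly(A) RNA was sequenced and read counts per gene were deposited. The labels do not say whether the 3 cultures of a group came from separate mice, so the p-values measure the spread between these cultures.

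Complement is a cascade of plasma proteins that marks surfaces for uptake, recruits inflammatory cells and perforates membranes. C1r and C1s start the classical pathway, in which C1s cleaves C4 and C2. Factor B serves the alternative pathway, and all routes meet at the cleavage of C3. Host cells are shielded by soluble inhibitors, such as C1 inhibitor and factor I, and by membrane proteins, such as CD55 and CD59. The liver makes most of the plasma proteins, while kidney tubule cells are a known local source of C3.

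Counts on genes summed to between 28313080 and 34183497 reads per culture, and 3 reads, the lowest number treated as a signal, corresponded to 0.0878 to 0.106 CPM (counts scaled to a common library total). Tubule markers (Epcam, Cdh1, Krt8, Krt18, Pax8, Cdh16; 6 of 6 tested) summed to 960 to 2553 CPM in CTL and 839 to 2109 CPM in TGF-β1 cultures. Hepatocyte markers (Alb, Apoa1, Ttr, Serpina1a) had at most 3 reads each in any culture. The replicate 2 cultures stood apart. Their Y-linked transcripts (Ddx3y, Eif2s3y, Kdm5d, Uty) summed to 151 CPM in CTL and 142 CPM after TGF-β1, against at most 0.172 CPM in the other 4 cultures. By this measure replicate 2 held male cells and the other 4 cultures did not, although the methods name male animals. Fibroblast markers (Pdgfra, Pdgfrb, Col1a1, Col1a2, Col3a1, Dcn, Lum) summed to 2570 and 3360 CPM in replicate 2 and to 1033 to 1437 CPM in the others. Their tubule marker sums, 960 CPM in CTL and 839 CPM after TGF-β1, were the lowest of each group, against 1696 to 2553 CPM in the others. Results are therefore also given without replicate 2 in both groups and with the replicate number as a block, that is, compared within same-numbered pairs.

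Among the 7 secreted members 4 fell after TGF-β1, while of the membrane inhibitors 1 rose. C3, C4b, Cfi and Serping1 fell at an adjusted p-value under 0.05 (edgeR quasi-likelihood test over all genes), and Cd55 rose 1.25-fold. C1ra and C2 had estimates below 0 that passed with the replicate block and not without it. Cfb and Cd59a did not pass in either fit. Without the block, 4 of the 9 genes were lower and 1 was higher, where 6.69% of all genes tested were lower and 5.00% higher. With the block, 6 were lower and 1 was higher, against 19.1% and 15.1% of all genes. The median log2 fold change was -2.22 over the 9 genes, -0.099 over the 23 other complement genes tested and -0.0028 over all genes tested. In 5 of the 9 every TGF-β1 culture lay below every CTL culture, as in 18.0% of all genes, and in 1 every TGF-β1 culture lay above, as in 17.2%. The 9 genes were picked with earlier results of these cultures known, so these counts and medians are no test of the group. Fewer expressing cells and less RNA per cell cannot be told apart in these bulk cultures.

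**Figure D1:**
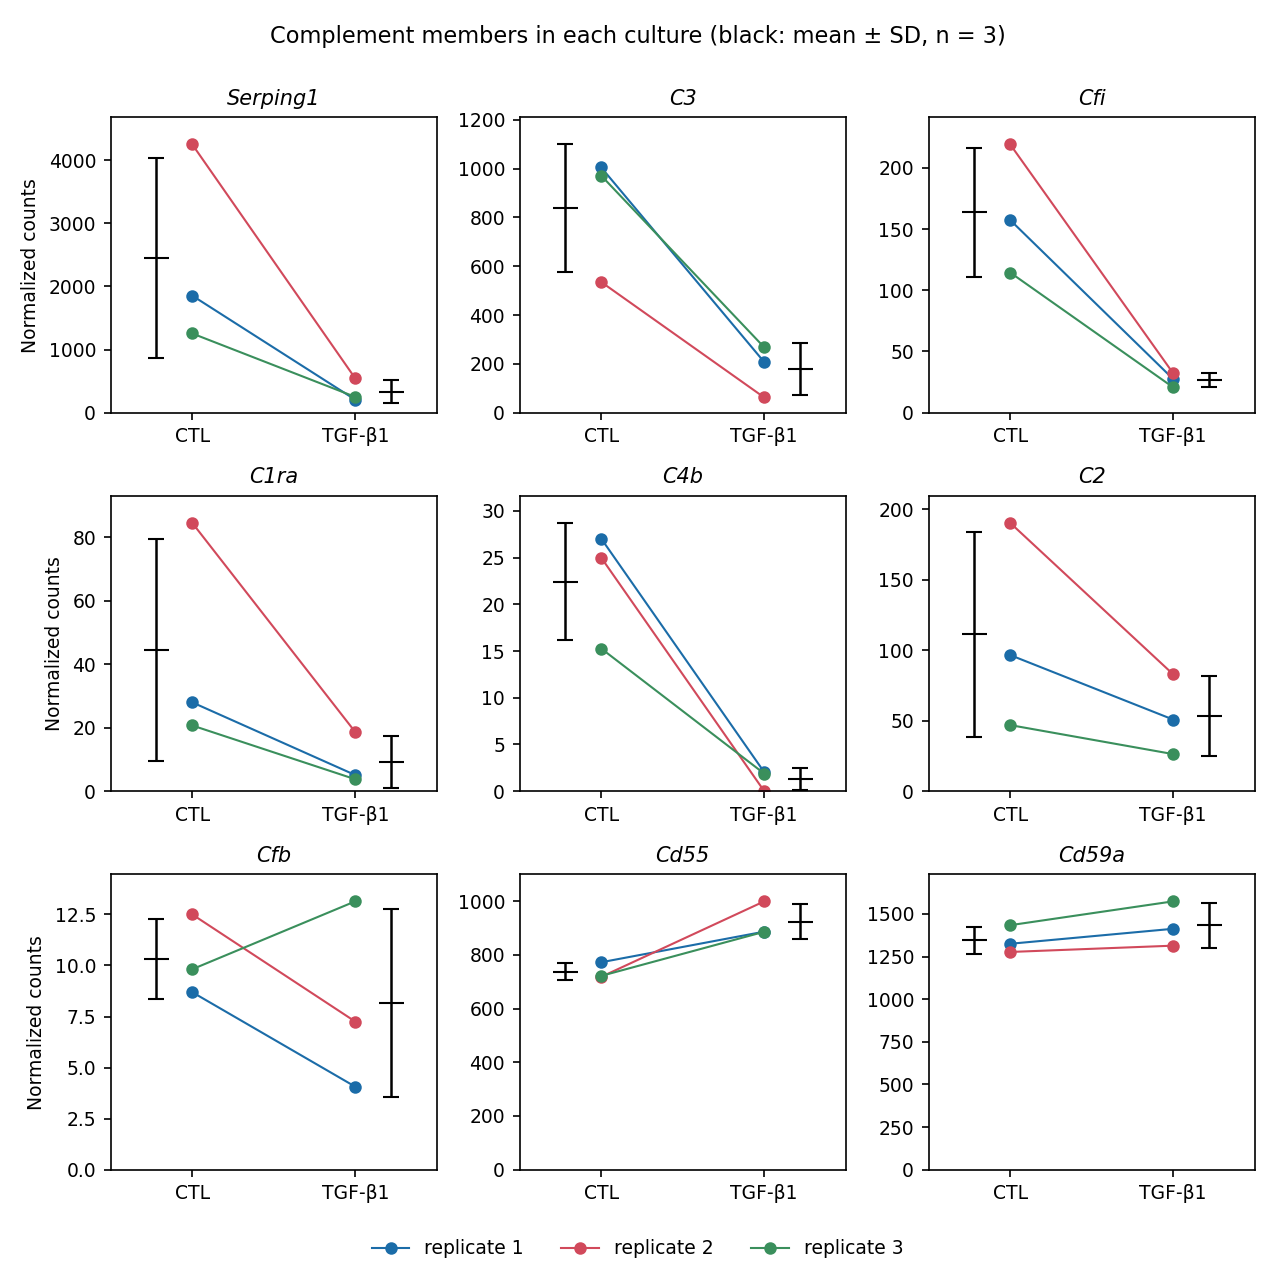
Normalized counts (vertical axes from 0) of the 9 complement genes in CTL and TGF-β1 cultures, with same-numbered cultures joined by a line and black bars for the mean ± SD (n = 3). All 3 lines descend for Serping1, C3, Cfi, C1ra, C4b and C2, and all 3 ascend for Cd55 (887, 1000 and 886 after TGF-β1 against 773, 718 and 722 in CTL) and, slightly, for Cd59a.

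C3 encodes the central component, cleaved to C3a and C3b by every pathway. It lies on chromosome 17 of GRCm38 (ENSMUSG00000024164.15, 57203970 to 57228136, minus strand). Normalized counts of C3 were 1005, 536 and 972 in CTL replicates 1, 2 and 3, and 207, 62.2 and 268 in TGF-β1 replicates 1, 2 and 3. Replicate 2 was the lowest of both groups, and even its CTL value was above each TGF-β1 value. The C3 means were 838 ± 262 in CTL and 179 ± 106 after TGF-β1 (SD, 3 cultures each), a 4.68-fold difference. The log2 fold change of C3 was -2.22 ± 0.53 (SE, adjusted p = 0.0492, edgeR), and blocking on replicate number gave -2.29 (adjusted p = 0.00059). The call without the block lay at the threshold. The C3 adjusted p-value from edgeR was 0.169, 0.0588 and 0.108 with CTL replicate 1, 2 or 3 left out, 0.143 without TGF-β1 replicate 1 and 0.0714 without TGF-β1 replicate 3. Without both replicate 2 cultures the log2 fold change of C3 was -2.05 ± 0.13 (SE, adjusted p = 0.00121). When replicate 1 or 3 was dropped from both groups, the adjusted p-value was 0.413 or 0.143. It was 0.173 with no filter beyond 1 count and 0.051 with at least 10 counts in every sample.

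C1ra encodes the protease C1r, which on activation of C1 cleaves and activates C1s. Normalized counts of C1ra (chromosome 6, 124512405 to 124523443, plus strand) were 28.0, 84.6 and 20.7 in CTL and 5.08, 18.6 and 3.76 after TGF-β1 in replicates 1, 2 and 3. The groups did not overlap, yet replicate 2 exceeded the other cultures of its group in both conditions. The log2 fold change of C1ra was -2.29 ± 0.80 (SE, adjusted p = 0.124, edgeR), -2.28 ± 0.25 with the replicate block (SE, adjusted p = 0.000339) and -2.45 without both replicate 2 cultures (adjusted p = 0.0169). The adjusted p-value of C1ra was 0.0376 by DESeq2 and 0.122 by limma-voom. C1ra passed in 0 of the 6 edgeR fits that each left out 1 culture, with adjusted p-values from 0.0942 to 0.296. Without CTL replicate 2 its log2 fold change was -1.43. When replicate 1 or 3 was dropped from both groups, the adjusted p-value was 0.497 or 0.23. Within same-numbered pairs the C1ra log2 ratio was -2.35, -2.15 and -2.32, a narrow range beside the spread of its levels.

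C4b encodes complement C4, which forms the classical and lectin pathway C3 convertase with C2. It was close to the detection limit. The reads on C4b (chromosome 17, 34728380 to 34743882, minus strand) numbered 28, 26 and 14 in CTL and 2, 0 and 2 after TGF-β1. Every TGF-β1 culture thus had fewer reads than the floor of 3, and every CTL culture had at least 14. Over all cultures of a group there were 68 reads in CTL and 4 after TGF-β1, a depth-adjusted ratio of CTL to TGF-β1 of 18.0 with an exact 95% interval of 6.72 to 68.0 that covers counting error only. The fitted C4b log2 fold change was -3.97 ± 0.59 (SE, adjusted p = 0.0128, edgeR), and blocking gave -3.95 (adjusted p = 0.000988). With so few reads this estimate depends on the prior count and is no bound. When CTL replicate 1 or TGF-β1 replicate 1 was left out, the adjusted p-value of C4b was 0.0665 or 0.0588. It was 0.263, 0.0171 and 0.0662 when replicate 1, 2 or 3 was dropped from both groups. C4a, a near-identical neighbour annotated as a processed transcript, had 25.1 to 32.8 normalized counts in CTL and 23.4 to 26.9 after TGF-β1 (adjusted p = 0.504). Reads that match both genes equally well were left out by the counting, so the levels of C4b and C4a are uncertain.

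C2 encodes the protease of the same convertase, and Cfb encodes factor B, its counterpart in the alternative pathway. Normalized counts of C2 (chromosome 17, 34862604 to 34898265, minus strand) were 96.6, 190 and 46.9 in CTL and 50.8, 82.9 and 26.3 after TGF-β1 in replicates 1, 2 and 3. The groups overlapped, but each pair descended, by log2 ratios of -0.92, -1.20 and -0.82. The log2 fold change of C2 was -1.07 ± 0.61 (SE, adjusted p = 0.308, edgeR) without the block and -1.03 ± 0.15 (SE, adjusted p = 0.00149) with it. The call with the block rests on 3 pairs, and without both replicate 2 cultures, in a fit without the block, the adjusted p-value was 0.257.

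Normalized counts of Cfb (chromosome 17, 34856374 to 34862518, minus strand) were 8.69, 12.5 and 9.81 in CTL and 4.06, 7.25 and 13.1 after TGF-β1. The highest and the lowest value both came from TGF-β1 cultures. The log2 fold change of Cfb was -0.32 ± 0.45 (SE, adjusted p = 0.686, edgeR). Blocking gave an adjusted p-value of 0.542. Over all cultures of a group Cfb had 31 reads in CTL and 25 after TGF-β1, a ratio of CTL to TGF-β1 of 1.31 with an exact 95% interval of 0.751 to 2.32 from counting error alone, to which the spread between cultures adds. The count of Cfb covers a small part of the gene. Of its 2825 exonic bases, 2246 (79.5%) are shared on the same strand with Gm20547, an annotated gene that runs across Cfb and C2, and reads on more than 1 gene were not counted. For C2 the shared part was 1656 of 3872 bases (42.8%). Gm20547 itself had 0 reads in all 6 cultures, but since shared reads were not counted this sets no limit on its level.

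Serping1 encodes C1 inhibitor, the serpin that inactivates C1r, C1s and the mannose-binding lectin proteases, and Cfi encodes factor I, the protease that degrades C3b and C4b with a cofactor. Both soluble inhibitors fell. Normalized counts of Serping1 (chromosome 2, 84765387 to 84775444, minus strand) were 1855, 4252 and 1255 in CTL and 205, 543 and 250 after TGF-β1 in replicates 1, 2 and 3. The highest TGF-β1 value was below the lowest CTL value, and replicate 2 was the highest of each group. The Serping1 means were 2454 ± 1586 and 333 ± 183 (SD, 3 cultures each), a 7.38-fold difference. Its log2 fold change was -2.89 ± 0.60 (SE, adjusted p = 0.034, edgeR). Blocking gave -2.84 ± 0.15 (SE, adjusted p = 0.000106). Serping1 lost its call without CTL replicate 1 (adjusted p = 0.1), CTL replicate 2 (0.0505), TGF-β1 replicate 1 (0.121) and TGF-β1 replicate 3 (0.0994), and with replicate 1 (0.337) or 3 (0.11) dropped from both groups. It also missed the threshold with no filter beyond 1 count (0.13). Without both replicate 2 cultures the adjusted p-value of Serping1 was 0.00388.

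Normalized counts of Cfi (chromosome 3, 129835884 to 129875332, plus strand) were 157, 219 and 115 in CTL and 27.4, 32.1 and 20.7 after TGF-β1. The TGF-β1 values lay close together and far below the CTL values, 164 ± 52.6 against 26.7 ± 5.76 (SD, 3 cultures each). The log2 fold change of Cfi was -2.62 ± 0.30 (SE, adjusted p = 0.00712, edgeR). Blocking gave -2.60 (adjusted p = 1.91e-05). Cfi was the one gene of the 9 that passed in all 6 fits that each left out 1 culture, with adjusted p-values from 0.00827 to 0.0492. Without both replicate 1 cultures it was 0.238, where edgeR called 0 of all genes, with 1938 at an unadjusted p-value under 0.05.

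Cd55 encodes decay-accelerating factor, which dissociates the C3 convertases on cell membranes, and Cd59a encodes an inhibitor of the membrane attack complex. Normalized counts of Cd55 (chromosome 1, 130439027 to 130462744, minus strand) were 773, 718 and 722 in CTL and 887, 1000 and 886 after TGF-β1. All TGF-β1 values were above all CTL values, and the means were 738 ± 30.4 and 924 ± 65.3 (SD, 3 cultures each), a 1.25-fold rise. The log2 fold change of Cd55 was 0.33 ± 0.07 (SE, adjusted p = 0.0392, edgeR), and blocking gave 0.32 (adjusted p = 0.00786). Of its exonic bases, 2.1% overlap the antisense gene Gm16083. The small rise of Cd55 depended on the scaling and on each culture. With library size as the only scaling, which moved the median log2 fold change of all genes to -0.077, the estimate was 0.25 (adjusted p = 0.0641). The adjusted p-value of Cd55 was 0.116, 0.0959 and 0.0957 with CTL replicate 1, 2 or 3 left out, 0.106, 0.0718 and 0.0773 with TGF-β1 replicate 1, 2 or 3 left out, and 0.33, 0.0719 and 0.156 without both cultures of replicate 1, 2 and 3.

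Normalized counts of Cd59a (chromosome 2, 104095801 to 104115354, plus strand) were 1325, 1277 and 1434 in CTL and 1413, 1314 and 1574 after TGF-β1. The groups overlapped, and the log2 fold change of Cd59a was 0.09 ± 0.08 (SE, adjusted p = 0.519, edgeR; 0.188 with the replicate block). Its same-numbered pairs differed by log2 ratios of 0.092, 0.042 and 0.13, small beside the ratios of the secreted members.

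Levels of different genes were compared as CPM per kb of exon. In CTL cultures Serping1 had 33.3 ± 21.5 CPM per kb, Cd59a 23.5 ± 1.4, C3 5.14 ± 1.61, Cd55 4.8 ± 0.2, Cfi 2.33 ± 0.75, C2 0.908 ± 0.594, C1ra 0.471 ± 0.371, C4b 0.124 ± 0.035 and Cfb 0.116 ± 0.022 (SD, 3 cultures each). Neighbours in this order that overlapped between cultures were Serping1 and Cd59a, C3 and Cd55, C2 and C1ra, and C4b and Cfb. After TGF-β1 the order began with both membrane inhibitors, Cd59a at 25.0 ± 2.3 and Cd55 at 6.01 ± 0.43 CPM per kb. Serping1 followed at 4.52 ± 2.49, overlapping Cd55, and C3 at 1.1 ± 0.65. C2 had 0.435 ± 0.231, Cfi 0.380 ± 0.082, C1ra 0.0970 ± 0.0873, Cfb 0.0911 ± 0.0515 and C4b 0.0072 ± 0.0063 CPM per kb. Here C3 and C2, C2 and Cfi, and C1ra and Cfb overlapped. The ranges of C3 and Cd55 overlapped in CTL, whereas every TGF-β1 culture had more Cd55 than C3 per kb. Per kb of exon not shared with Gm20547, Cfb had 0.564 ± 0.107 CPM in CTL and 0.445 ± 0.251 after TGF-β1, and C2 had 1.59 ± 1.04 and 0.760 ± 0.404 (SD, 3 cultures each). On these bases the order changes, since the mean of Cfb lay above those of C1ra and C4b in CTL and above those of Cfi, C1ra and C4b after TGF-β1.

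**Figure D2:**
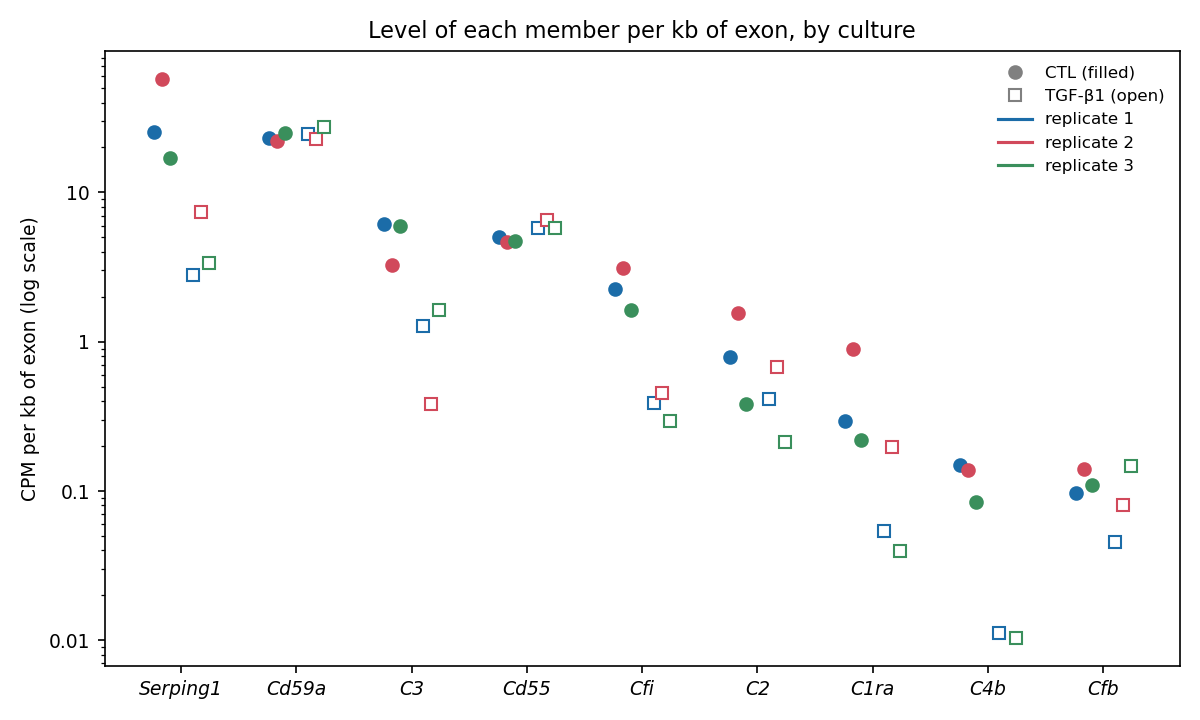
CPM per kb of exon (log scale) of the 9 genes, ordered by their CTL mean, with 1 point per culture, colored by replicate number. Cd59a (23.5 and 25 on average) and Cd55 lie near their CTL level while Serping1 moves from 33.3 to 4.52 and C3 from 5.14 to 1.1 on average. The C4b value of 0 in TGF-β1 replicate 2 cannot be drawn on this scale.

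Levels of several members followed the replicate number in both conditions. Replicate 2 had the highest Serping1, Cfi, C1ra and C2 counts in CTL and again after TGF-β1, and the lowest C3 counts in both. The fibroblast marker sum was also highest in both replicate 2 cultures. In that list edgeR called 0 of 6 tested genes between the conditions without the block (0 also at an unadjusted p-value under 0.05, by DESeq2 and by limma-voom), and with it Col1a1 and Col1a2 were higher and Pdgfrb and Dcn lower after TGF-β1. The part of fibroblasts in the complement levels was not tested. Leukocyte markers (Ptprc, Cd68, Adgre1, Csf1r, Cd3e, Cd79a, Lyz2, Itgam) summed to 9.37 to 21.4 CPM in CTL and 6.84 to 18.5 CPM after TGF-β1, with Cd3e and Cd79a at 3 reads or fewer in every culture. Of its 6 tested genes, 1, the macrophage receptor Csf1r, was lower (log2 fold change -1.32, adjusted p = 0.0238, edgeR). Endothelial markers (Pecam1, Cdh5, Kdr, Tek, Emcn) summed to at most 2.58 CPM, and 0 of 2 tested were called by edgeR with or without the block, by DESeq2 or by limma-voom (0 at an unadjusted p-value under 0.05). Proximal tubule markers (Lrp2, Cubn, Slc34a1, Slc5a2, Aqp1) summed to 76.9 to 92.6 CPM in CTL and 35.3 to 48.9 CPM after TGF-β1, with Slc5a2 at 3 reads or fewer in every culture and Lrp2 and Aqp1 lower (2 of 3 tested). Of the tubule epithelial markers, Pax8 and Cdh16 were lower (2 of 6 tested), and with the block Epcam and Cdh1 were lower as well (4 of 6). The part of these shifts in the fall of the complement genes was not tested. Beside these marker counts, edgeR called 6.69% of all genes lower and 5.00% higher, and 19.1% and 15.1% with the block.

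Of 49 other genes of the complement system, 23 were tested, and 3 were lower and 0 higher (edgeR; 7 lower and 0 higher with the replicate block). Over all genes tested, 6.69% were lower and 5.00% higher, and 19.1% and 15.1% with the block. At an unadjusted p-value under 0.05 there were 5 lower and 0 higher among the 23, and 4529 in either direction among all 15862 genes tested. DESeq2 called 4 lower and limma-voom 2 lower, with 0 higher in each. Their median log2 fold change was -0.099, against -2.22 for the 9 members, which were picked with results of these cultures known. Masp1, which encodes a protease of the lectin pathway, fell from 279 ± 18.9 to 75.1 ± 15.8 normalized counts (SD, 3 cultures each), with a log2 fold change of -1.89 ± 0.17 (SE, adjusted p = 0.00379). It had 257, 289 and 290 normalized counts in CTL and 69.1, 63.2 and 92.9 after TGF-β1, and passed in all 6 fits that left out 1 culture (adjusted p = 0.232 without both replicate 1 cultures). The C1q chains, whose main source is the macrophage, were not called, at log2 fold changes of 0.34 (C1qa, adjusted p = 0.715), 0.49 (C1qb, 0.65) and 0.29 (C1qc, 0.831). C1s1, the partner of C1ra, had 33.8, 251 and 16.4 normalized counts in CTL and 4.06, 95.3 and 3.76 after TGF-β1. As with C1ra, replicate 2 was far above the others and all pairs descended, and C1s1 had an adjusted p-value of 0.53 without the block and 0.00191 with it. Without CTL replicate 2 its log2 fold change was 0.42, and 18.4% of its exonic bases overlap the antisense gene Gm16567.

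Among the other soluble regulators, C4bp, the C4b-binding cofactor of factor I, had 97.5, 211 and 52.3 normalized counts in CTL and 12.2, 12.4 and 20.7 after TGF-β1. Its log2 fold change was -2.98 ± 0.59 (SE, adjusted p = 0.031, edgeR). The adjusted p-value of C4bp was 0.0971 with CTL replicate 1 left out, 0.119, 0.0875 and 0.0715 with TGF-β1 replicate 1, 2 or 3 left out, and 0.342 and 0.0579 without both cultures of replicate 1 and 3. It was 0.0595 by limma-voom and 0.0523 with no filter beyond 1 count. Clu, which encodes clusterin, an inhibitor of membrane attack complex assembly, was by far the most counted gene of the list, with 35830 to 84945 normalized counts in CTL and 37967 to 96284 after TGF-β1 (log2 fold change 0.14, adjusted p = 0.862, and -0.13 without CTL replicate 2 or -0.18 without TGF-β1 replicate 3).

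Membrane regulators outside the 9 members differed among themselves. Csmd1, a large membrane protein with complement control repeats, had 310, 351 and 125 normalized counts in CTL and 52.8, 41.4 and 30.0 after TGF-β1. Its log2 fold change was -2.66 ± 0.45 (SE, adjusted p = 0.0195, edgeR). The adjusted p-value of Csmd1 was 0.086 with CTL replicate 1 left out, 0.0718, 0.0562 and 0.0615 with TGF-β1 replicate 1, 2 or 3 left out, and 0.276 without both replicate 1 cultures. Cr1l, the rodent regulator known as Crry, had 1504 to 1533 normalized counts in CTL and 1295 to 1500 after TGF-β1, with a log2 fold change of -0.099 (adjusted p = 0.379). Susd4 (log2 fold change -0.52) and Cd93 (-0.67) passed with the block (adjusted p = 0.000481 and 0.0455) and not without it (0.517 and 0.31). Of 7 genes of the terminal pathway, which forms the membrane pore, C8g alone was tested (log2 fold change -0.058, adjusted p = 0.868), and C8a and C9 had 0 reads in all cultures. In all, 26 of the 49 genes had too few reads to be tested, with at most 13 reads in any culture, and 7 of them, including Cfd (factor D), had 0 reads in all cultures.

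**Figure D3:**
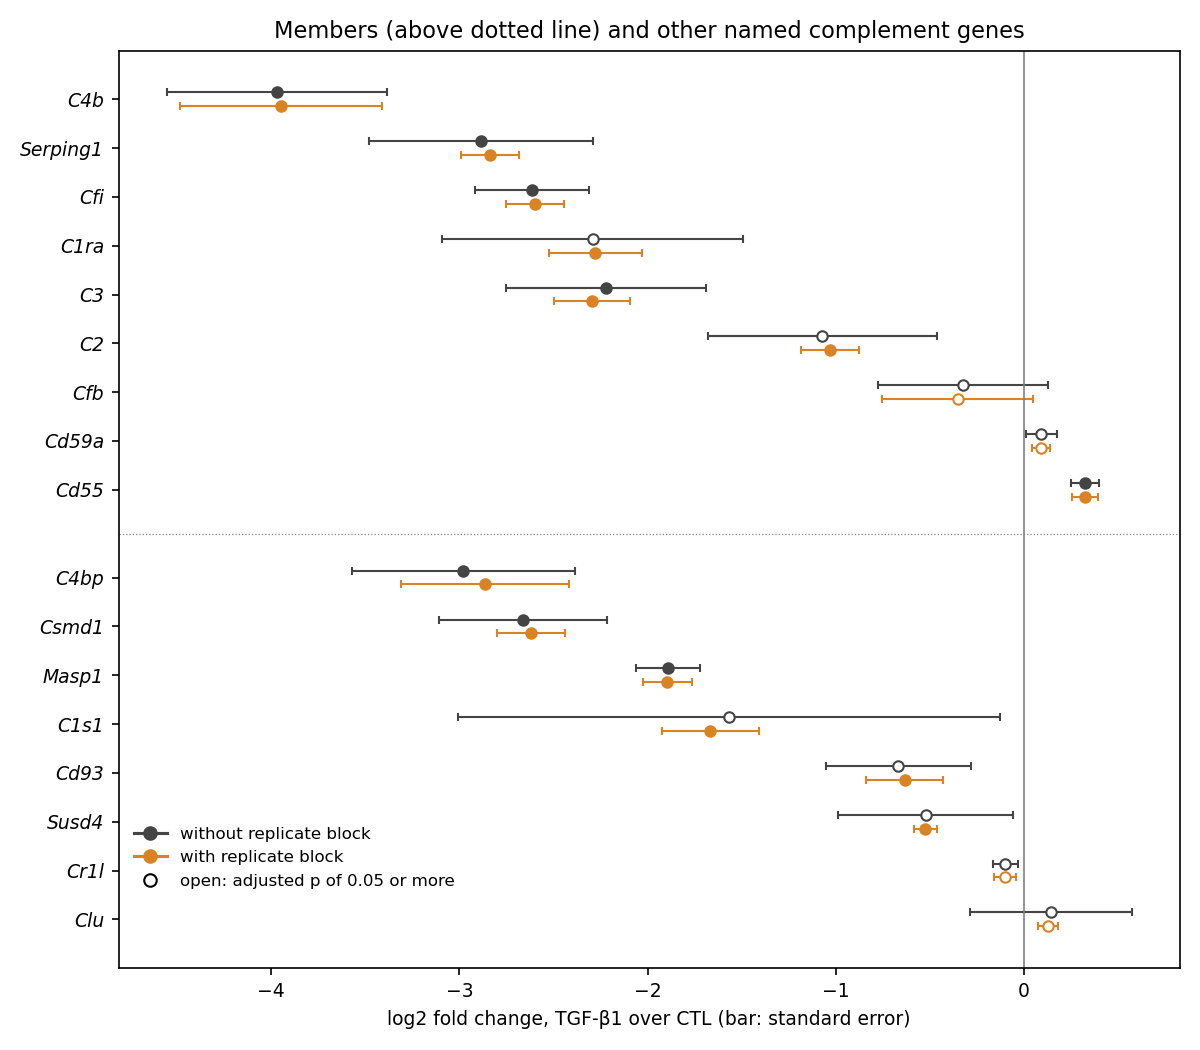
Log2 fold change of TGF-β1 over CTL (horizontal axis, bars show the standard error) without and with the replicate block. The 9 members are above the dotted line. Below it are C1s1, Masp1, Cr1l, C4bp, Clu, Susd4, Csmd1 and Cd93. C4a, the C1q chains and C8g, which were not called, are not drawn. The estimates of both fits lie close together while the bars of C1ra, C2 and C1s1 shorten with the block. Of the membrane regulators drawn, Cd55, Cd59a and Cr1l lie near 0, while Susd4 lies at -0.52 and Csmd1 at -2.66 without the block.

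Complement genes are commonly counted among acute-phase genes, which respond to IL-6 and IL-1 through STAT3, NF-κB and C/EBP factors. Of 15 other acute-phase genes, 6 were tested, and 2 were lower and 0 higher (edgeR; 3 lower and 1 higher at an unadjusted p-value under 0.05, 3 lower by DESeq2 and 2 by limma-voom). Serpina3n, a serpin of the antichymotrypsin family, had 1680, 2020 and 1171 normalized counts in CTL and 405, 483 and 379 after TGF-β1 (log2 fold change -1.94 ± 0.22 SE, adjusted p = 0.00712, edgeR; 0.238 without both replicate 1 cultures). Lbp, the lipopolysaccharide-binding protein, had 677, 336 and 408 in CTL and 124, 50.8 and 96.7 after TGF-β1 (log2 fold change -2.39 ± 0.40 SE, adjusted p = 0.0201). The adjusted p-value of Lbp was 0.0722 with CTL replicate 1 left out, 0.0591 and 0.0617 with TGF-β1 replicate 1 or 3 left out, and 0.238 and 0.116 without both cultures of replicate 1 and 3. It was 0.0507 with no filter beyond 1 count. With the replicate block 4 of the 6 were lower and 1 (Hpx, hemopexin) was higher. For all genes tested the shares were 6.69% lower and 5.00% higher without the block, and 19.1% and 15.1% with it. An unadjusted p-value under 0.05 was found for 4529 of the 15862, in either direction.

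Of 22 signal and factor genes, 18 were tested, and 5 were lower and 0 higher (edgeR; 10 lower and 1 higher with the block). At an unadjusted p-value under 0.05 there were 8 lower and 1 higher, and DESeq2 called 6 lower and limma-voom 5 lower. Among all 15862 genes tested, edgeR called 6.69% lower and 5.00% higher, and 19.1% and 15.1% with the block. In either direction 4529 of them had an unadjusted p-value under 0.05. Cebpd, an acute-phase C/EBP factor, had 1461, 1381 and 974 normalized counts in CTL and 656, 499 and 480 after TGF-β1 (log2 fold change -1.22 ± 0.19 SE, adjusted p = 0.017, edgeR). Cebpb had 871, 922 and 864 in CTL and 721, 570 and 701 after TGF-β1 (log2 fold change -0.42 ± 0.10 SE, adjusted p = 0.0484). The groups of both factors did not overlap, and in 18.0% of all genes tested every TGF-β1 culture lay below every CTL culture. Il6st, the shared receptor chain gp130, Socs3, an inhibitor induced by STAT3, and Tnfrsf1a, a TNF receptor, fell by log2 fold changes of -0.87, -0.88 and -0.43 (adjusted p = 0.021, 0.0184 and 0.0381). Each of these 5 lost its call without CTL replicate 1, with adjusted p-values of 0.0753 for Cebpd, 0.16 for Cebpb, 0.0821 for Il6st, 0.0842 for Socs3 and 0.148 for Tnfrsf1a. Without TGF-β1 replicate 1 they were 0.0476, 0.0918, 0.0842, 0.0641 and 0.134, without TGF-β1 replicate 2 they were 0.0487, 0.0425, 0.0559, 0.0376 and 0.0541, and without TGF-β1 replicate 3 they were 0.053, 0.0808, 0.053, 0.0494 and 0.104, in the same order. Without both replicate 1 cultures they were 0.238, 0.342, 0.308, 0.274 and 0.413, and without both replicate 3 cultures 0.0471, 0.154, 0.0626, 0.0689 and 0.0713. Cebpb also lost its call without CTL replicates 2 and 3 (0.11 and 0.0937), and Tnfrsf1a without CTL replicate 2 (0.0718). Nfkb1, Stat3 and Irf1 passed in neither fit (log2 fold changes -0.086, -0.099 and 0.11, adjusted p = 0.711, 0.52 and 0.682 without the block). Rela passed with the block only (log2 fold change -0.17, adjusted p = 0.0168 with it and 0.226 without). Other genes of the IL-6 axis went the other way. Il6ra, the IL-6 receptor, was the 1 gene higher with the block (log2 fold change 0.46, edgeR adjusted p = 0.027 with it and 0.0748 without). Il6 had too few reads to be tested, at 2, 2 and 2 in CTL and 5, 19 and 8 after TGF-β1.

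**Figure D4:**
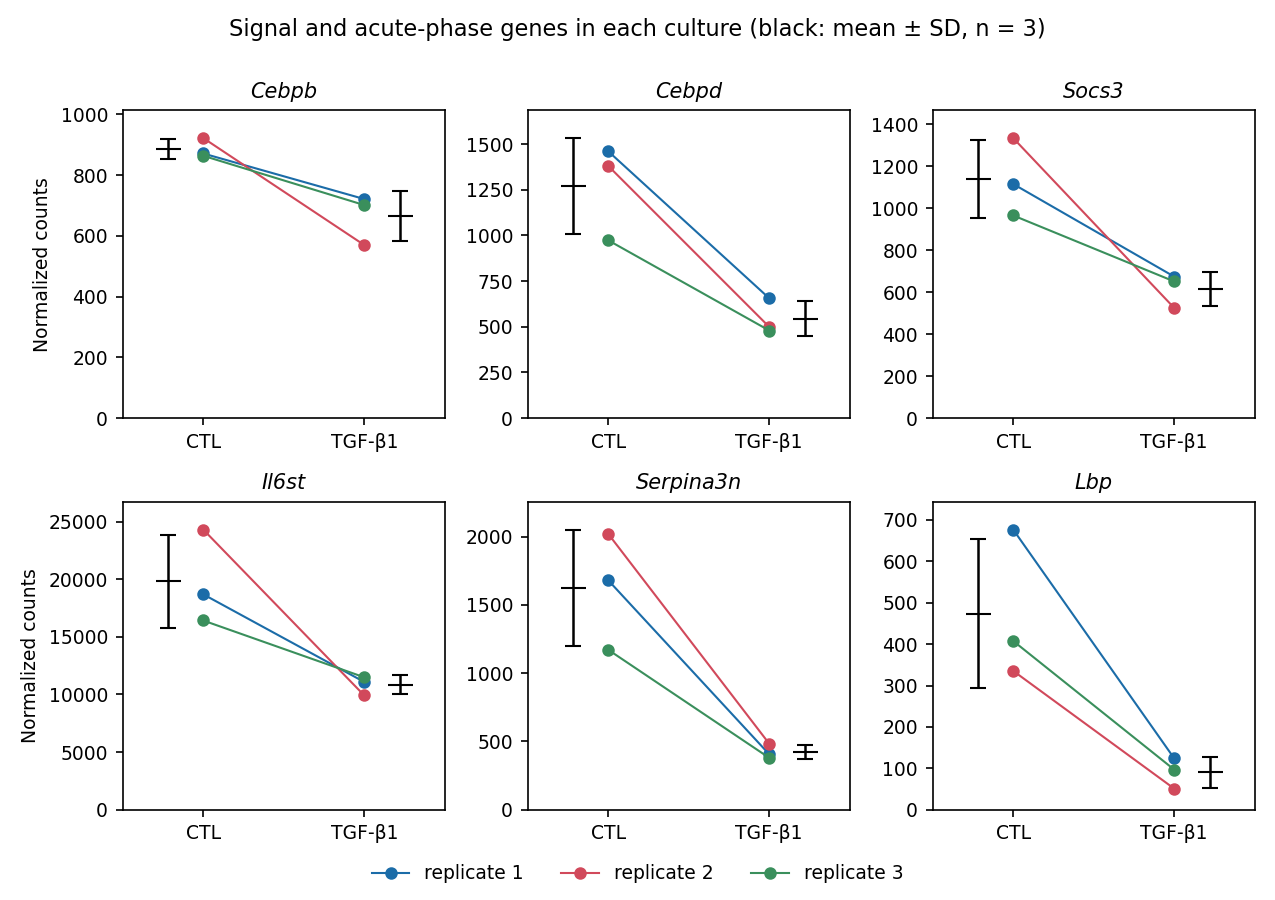
Normalized counts (vertical axes from 0) of Cebpb, Cebpd, Socs3, Il6st, Serpina3n and Lbp in CTL and TGF-β1 cultures, with same-numbered cultures joined and black bars for the mean ± SD (n = 3). In each panel all 3 lines descend and the groups do not overlap, as for Cebpd at 974 to 1461 in CTL and 480 to 656 after TGF-β1.

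Promoter sequences of 4 members were at hand from RefSeq on GRCm38.p6, each running from 250 bases before the RefSeq start site to 50 after it. They are shown because these 4 were the members for which a window was at hand, and they were not chosen as a contrast. Capitals mark matches, on either strand, to a C/EBP-like motif (TTNNGNAA) or a STAT motif (TTCNNNGAA). The windows are chr17:57228087-57228386 (minus strand, C3), chr6:124512371-124512670 (plus strand, C1ra), chr1:130462695-130462994 (minus strand, Cd55) and chr2:104095551-104095850 (plus strand, Cd59a).
C3: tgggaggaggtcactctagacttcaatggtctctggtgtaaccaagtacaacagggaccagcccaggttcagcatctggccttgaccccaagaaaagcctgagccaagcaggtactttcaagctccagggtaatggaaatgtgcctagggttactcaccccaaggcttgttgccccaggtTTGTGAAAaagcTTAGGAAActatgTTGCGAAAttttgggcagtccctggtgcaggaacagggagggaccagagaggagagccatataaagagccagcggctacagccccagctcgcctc
C1ra: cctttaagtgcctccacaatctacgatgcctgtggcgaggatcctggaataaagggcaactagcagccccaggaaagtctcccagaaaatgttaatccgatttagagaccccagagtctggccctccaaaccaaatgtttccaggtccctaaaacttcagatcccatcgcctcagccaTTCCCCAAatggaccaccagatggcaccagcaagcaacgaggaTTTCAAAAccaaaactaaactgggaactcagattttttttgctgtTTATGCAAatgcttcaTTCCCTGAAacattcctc
Cd55: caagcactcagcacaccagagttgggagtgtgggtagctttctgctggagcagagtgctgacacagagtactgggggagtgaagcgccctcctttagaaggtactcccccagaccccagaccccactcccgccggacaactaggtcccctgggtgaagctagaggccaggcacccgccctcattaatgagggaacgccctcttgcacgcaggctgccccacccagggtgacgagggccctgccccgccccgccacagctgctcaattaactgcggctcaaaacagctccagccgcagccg
Cd59a: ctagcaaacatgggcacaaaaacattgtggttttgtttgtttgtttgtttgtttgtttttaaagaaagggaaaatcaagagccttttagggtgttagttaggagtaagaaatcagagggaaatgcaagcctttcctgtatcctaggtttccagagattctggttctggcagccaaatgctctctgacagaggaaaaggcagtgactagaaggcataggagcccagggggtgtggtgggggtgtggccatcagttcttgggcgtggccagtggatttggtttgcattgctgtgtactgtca

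The C3 window holds 3 C/EBP-like matches, whose first letters lie 70, 58 and 45 bases before the start base. The C1ra window also holds 3, at -72, -29 and 16, and 1 STAT match at 32, which overlaps none of them. The windows of Cd55 and Cd59a hold 0 of either. Of 32851 RefSeq windows of 300 bases, 40.7% hold at least 1 C/EBP-like match, 3.60% hold 3 or more and 8.30% hold a STAT match. An NF-κB-like motif (GGNNTTTCC, in 5.82% of windows) was in 0 of the 4. The Smad box CAGAC (in 49.6% of windows) occurred once in C1ra, at -135, in Cd55 at -141 and -134, and not in C3 or Cd59a. These matches describe letters in the windows and are not evidence of binding. The RefSeq start site of C1ra lies downstream of the gene start given above (124512405). By that annotation most of the C1ra window, and all its matches, lie inside the gene.

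Among 10907 genes with a mean of at least 5 CPM, the 5 whose log2 CPM over the 6 cultures ran most like that of C3 were Ipmk, Dennd6a, Ptprj, Atp1b1 and Sh3tc1, with Pearson r from 0.9978 to 0.9992. Within the members, r with C3 over the 6 cultures was taken on the log2 of normalized counts plus 0.5. It was 0.952 for C4b, 0.743 for Cfi, 0.594 for Serping1 and 0.376 for C1ra. For C2, Cfb, Cd59a and Cd55 it was 0.136, 0.383, -0.0015 and -0.922. The C4b value rests on TGF-β1 cultures with 2, 0 and 2 reads, below the floor of 3. The 6 points share libraries and fall into 2 conditions, so these values describe the order of the cultures only.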

How the data were processed

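Renal tubule epithelial cell RNA was sequenced as single 50-bp reads in 3 CTL and 3 TGF-β1 cultures. The authors trimmed reads with Trim Galore, aligned them to GRCm38 with STAR 2.4.1d and counted them on genes with HTSeq 0.6.1 (per the submitters' processing notes and the methods); the deposited values are whole read counts per gene without normalization, 1 file per culture. The annotation release and the strand setting are not given in the sources used here. HTSeq tallies of reads on no gene, on several genes or with several alignments (25.4% to 25.9% of all reads) were left out. GENCODE M21 (GRCm38) supplied symbols for 46005 of 46517 identifiers, positions and exon lengths.

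The tests used edgeR 4.0.16 in R 4.3.3 (filterByExpr, TMM, robust glmQLFit, two-sided glmQLFTest). P-values were adjusted over 15862 genes (Benjamini-Hochberg) and read at 0.05. SEs of log2 fold changes came from the F statistic. Normalized counts were TMM-scaled to the geometric mean library size. Log2 ratios of pairs used a pseudocount of 0.5. The cultures were paired by the replicate numbers of the labels. Deviations from the group means correlated at 0.34, 0.684 and 0.572 within same-numbered pairs and at -0.617 to 0.215 otherwise. Centering on the group means makes high same-numbered values lower the others, so this contrast is partly built in. Replicate 1 was the least distinct, at 0.34 against 0.215 for CTL replicate 1 with TGF-β1 replicate 3. The study compared 2 groups by a Student t test and mentions no pairing, so the block was an alternative. The other alternatives were DESeq2 1.42.0, limma-voom (limma 3.58.1), RLE scaling, library size only, 2 other filters, a threshold of 0.01, and leaving out cultures. The count models were tested on simulated data.

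Named genes were the 9 members, complement genes of a list that passed in either fit or had a mean of at least 5 CPM, and acute-phase and signal genes that passed. Members and lists were chosen with earlier results of these data known. Genes named outside this rule, such as C4a, the C1q chains, C8g, Hpx, Nfkb1, Rela, Stat3, Irf1, Il6ra, Il6 and Gm20547, were chosen after their values were seen. Values of 1 listed complement gene are not reported here. RefSeq promoters were found for 4 of the 9 members. Figures were drawn with matplotlib 3.10.9.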

Additional observations from a re-analysis of the deposited data

How the results depend on the processing

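Each member kept the direction of its log2 fold change under every alternative that gave a value. C4b, Cfb and C1ra had none with at least 10 counts in every sample, nor Cfb without replicate 3 in both groups. The replicate block changed 2 of the 9 calls (C1ra and C2, to an adjusted p-value under 0.05), and among the other named complement genes it added C1s1, Susd4 and Cd93. DESeq2 added C1ra. Over all genes the block gave 2388 higher and 3037 lower against 793 and 1061, DESeq2 gave 2722 in all, and library size only gave 508 higher and 1467 lower. Of the members, 4 were lower; no filter beyond 1 count gave 2, at least 10 counts in every sample gave 2, and a threshold of 0.01 gave 1. Leaving out 1 culture gave 1 to 4 lower members and 0 higher, and the same fits called 295 to 1265 of all genes against 1854, with 295 and 321 without CTL or TGF-β1 replicate 1. Leaving out replicate 1, 2 or 3 in both groups gave 0, 5 and 1 lower and 0 higher. Over all genes these fits gave 0, 1290 and 190 lower and 0, 1084 and 95 higher. Cd55, the 1 higher member, also gave 0 with library size only and at 0.01. Of the other complement genes, 3 were lower; the replicate block gave 7, a threshold of 0.01 gave 1, leaving out 1 culture gave 1 to 3, and leaving out replicate 1, 2 or 3 in both groups gave 0, 5 and 2. Of the acute-phase genes, 2 were lower; the replicate block gave 4 lower and 1 higher, no filter beyond 1 count gave 1, a threshold of 0.01 gave 1, leaving out 1 culture gave 1 to 2, and leaving out replicate 1 or 3 in both groups gave 0 and 1. Of the signal and factor genes, 5 were lower; the replicate block gave 10 lower and 1 higher, a threshold of 0.01 gave 0, leaving out 1 culture gave 0 to 4, and leaving out replicate 1 or 3 in both groups gave 0 and 1. With 1 culture left out, the log2 fold change of C1s1 ran from -4.65 to 0.42 (above 0 without CTL replicate 2) and that of Clu from -0.18 to 0.43 (below 0 without CTL replicate 2, at -0.13, and without TGF-β1 replicate 3). The cause was not tested. The replicate block was in none of the fits with cultures left out. Depth limited C4b and Cfb, at 28 and 14 reads or fewer per culture.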
